A study of Mus musculus with 9 samples.

Results

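Messenger RNA of 57 cell cycle genes was compared between cultured tracheal myoepithelial cells with forced Lef1 expression and their wild-type counterparts. The genes were chosen by their roles in the cell cycle, with earlier results of these data known. All 57 had a row among the 13336 genes of the deposited table. They form a replication set of 27 genes (Pcna to Prim1, active around the start of S phase) and a mitosis set of 30 genes (Mki67 to Cdca8, active in G2 and M phase). In the Lef1KI cells 24 of 27 replication genes had a higher mean than in WT cells (13 of 27 once libraries were scaled to a common median). Over all genes, 9281 of 13336 had a higher mean as deposited. Of the mitosis genes, 29 of 30 had a lower mean (30 of 30 once scaled), against 30.4% of all genes (52.7% once scaled). The genes moved together by library. Without Lef1KI E, 12 of 27 replication genes were higher, and without WT A, 20 of 30 mitosis genes were lower. No single one of the 57 genes passed the test across all genes, which 7.97% of all genes passed. The level of the replication set relative to the mitosis set was 1.37-fold higher in Lef1KI libraries, and the ranges of the 2 groups did not overlap. The ranges did overlap when each set was scored by its median gene.

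The Lef1KI group holds 5 libraries of GFP- cells from cultures labelled ACTA2-CreERT2:Lef-1KI+/+, and the WT group holds 4 libraries of GFP+ cells from cultures labelled ACTA2-CreERT2:ROSA-TG. The study asked what overexpression of Lef-1, a DNA-binding effector of Wnt signalling, does to expanded myoepithelial cells, the contractile cells that wrap airway glands. Both genotypes carry a tamoxifen-inducible Cre under the ACTA2 (smooth muscle actin) promoter, and tamoxifen was given to the mice daily over 5 days before the airway cells were taken. Each library came from gland cells pooled from 3 to 5 mice and grown to passage 1 in airway medium with 10 µM Y-27632 and, each at 1 µM, DMH-1, A83-01 and CHIR 99021. CHIR 99021 inhibits GSK3 and so activates Wnt signalling, which means that WT cells were also grown with this pathway stimulated. Genotype and GFP gate changed together, so their parts in any difference cannot be told apart. Libraries are named by their column letters, Lef1KI A to E and WT A, B, D and E.

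The values are TPM, a transcript level per length and per library total, deposited as log2(TPM + 1). Differences below are Lef1KI minus WT on that log2 scale, which understates the change of genes at low TPM. The labels call the libraries biological replicates. Lef1 stood at 139 to 312 TPM in the Lef1KI libraries, against 0.38 to 0.55 TPM in the WT libraries. Of 15 basal and myoepithelial markers, 13 had a row, and their summed level was 21844 to 25120 TPM in Lef1KI libraries and 17409 to 24835 TPM in WT libraries. Of these 13, Mylk was called higher in Lef1KI (0.70, adjusted limma p 0.0448) and Ngfr lower (-1.07, 0.0305), where limma at an adjusted p below 0.05 called 6.73% of all genes higher and 1.24% lower. Acta2, the gene of the Cre promoter, stood at 30.1 to 106 TPM in Lef1KI libraries and 83.2 to 176 TPM in WT libraries (-1.13, adjusted limma p 0.0834). Most of the summed level came from the keratins Krt5, Krt14, Krt15 and Krt17. The contractile markers Tagln and Myh11 stood at only 1.66 to 10.4 TPM and 0.27 to 2.12 TPM over all libraries. Cnn1 and Oxtr were not analysed here. Fibroblast markers summed to 451 to 1283 TPM in Lef1KI libraries and 131 to 227 TPM in WT libraries, and 12 of the 15 with a row (of 16 listed) were called higher in Lef1KI, against the same 6.73% of all genes. The endothelial markers summed to 46.9 to 134 TPM in Lef1KI libraries and 21.9 to 33.3 TPM in WT libraries, with 7 of 10 called higher (of 13 listed). The deposited table keeps genes whose mean is at least 3 SD in at least 1 group. Some markers called higher met this filter in Lef1KI alone, such as Cdh5, Kdr, Emcn and Plvap, and Thy1 and Postn among the fibroblast markers. The counts of markers called higher are therefore not independent of the filter. Ngfr met the filter in WT alone, so its lower level in Lef1KI is not independent of it either. Of 10 leukocyte markers listed, 3 had a row. Their sum was 5.16 to 12.8 TPM in Lef1KI libraries and 0.54 to 3.16 TPM in WT libraries, and 2 were called higher. All 3 (Lyz2, Coro1a and Adgre1) met the filter through the Lef1KI group only, so their higher level there is not independent of it. Coro1a and Adgre1 were also below 1 TPM in every library. Leukocyte markers without a row could not be compared. Adgre1 was listed at 0 in 3 WT libraries and Coro1a in 1, and no other marker with a row was at 0 in any library. The part of these other cell types in the results on cell cycle genes was not tested.

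Cell cycle transcription runs in waves. Around the start of S phase, E2F factors released from the RB family raise the genes that load and fire replication origins, make nucleotides and copy DNA. Later, a complex of MuvB proteins with B-Myb and FoxM1 raises the mitotic genes, binding them through the cell cycle homology region (CHR), often beside CCAAT boxes bound by NF-Y. The balance of the 2 waves in RNA from many cells reflects both how many cells are in each phase and how much RNA each cell holds; fewer cells in a phase and less RNA per cell cannot be told apart here.

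The promoters of the 2 sets differed in these elements. RefSeq (build GRCm38.p6) gave a window for 49 of the 57 genes, running from 250 bases before to 50 bases after the start. Both strands were searched for the E2F words TTTCCCGC, TTTGGCGC, TTTCGCGC and TTTGCCGC, for the CHR words TTTGAA and TTCGAA, and for CCAAT. A CHR word lay in 22 of 26 mitosis promoters (84.6%) and in 4 of 23 replication promoters (17.4%), against 13.3% of the 9644 promoters of genes in the table and 19.4% of all 27025 promoters. A CHR word together with a CCAAT box lay in 19 mitosis promoters (73.1%) and in 3 replication promoters (13.0%), against 5.68% of table genes and 7.7% of all promoters. An E2F word lay in 7 replication promoters (30.4%) and in 1 mitosis promoter (3.85%), that of Cdk1, against 4.09% of table genes and 2.32% of all promoters. CCAAT boxes alone were common in both sets, in 21 mitosis promoters (80.8%) and 14 replication promoters (60.9%), against 39.0% of table genes and 37.9% of all promoters. These are letter matches, not measured binding.

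**Figure D1:**
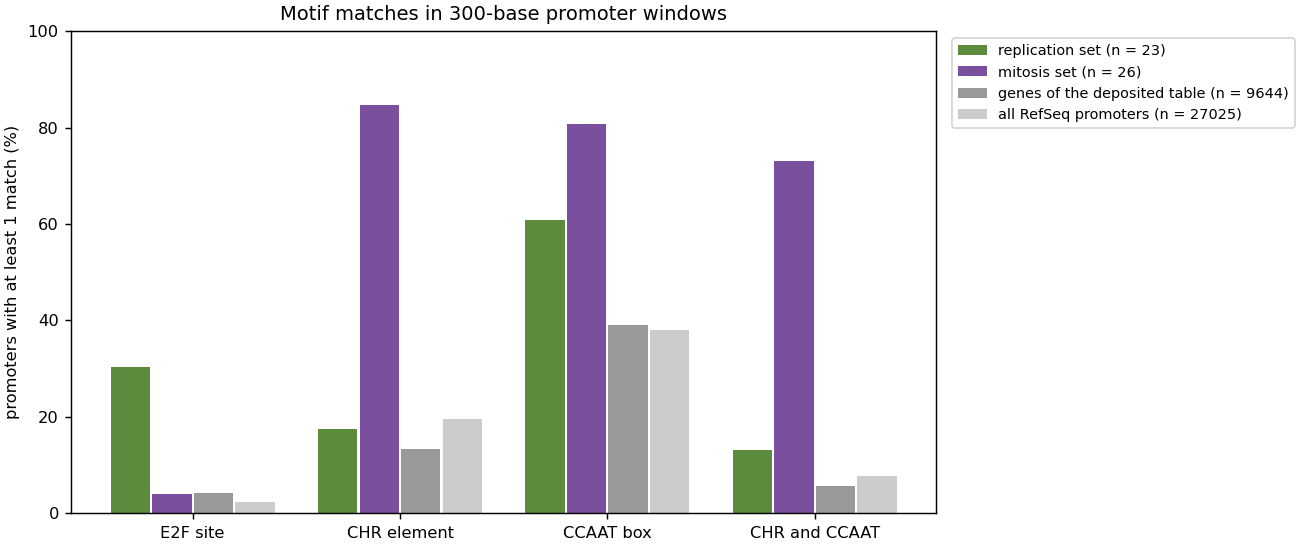
Share of 300-base promoter windows with at least 1 match, in percent, for each motif. Bars stand for the replication set, the mitosis set, genes of the deposited table and all RefSeq promoters; the CHR word is at 84.6% in mitosis promoters and 17.4% in replication promoters.

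The promoters of 5 genes are printed to show how the elements are laid out, with motif letters in capitals. The start by RefSeq, its first transcribed base, is at position 251 of each window. The gene bounds from GENCODE given below for Pcna and Cdk1 begin further upstream, inside these windows. Pcna and Slbp, and Cdk1 and Ttk, have the smallest p of their set among the genes that are given by library below and have a window, and Mcm6 was added after the matches were seen because it holds the most E2F words (3).
Pcna, chr2:132253131-132253430, minus strand: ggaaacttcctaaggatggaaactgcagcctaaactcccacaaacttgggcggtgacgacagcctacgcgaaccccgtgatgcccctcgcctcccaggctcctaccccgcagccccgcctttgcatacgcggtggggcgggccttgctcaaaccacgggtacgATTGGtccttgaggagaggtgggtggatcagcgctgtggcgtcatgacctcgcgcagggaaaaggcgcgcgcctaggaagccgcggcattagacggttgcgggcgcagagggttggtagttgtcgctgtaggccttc
Slbp, chr5:33652525-33652824, minus strand: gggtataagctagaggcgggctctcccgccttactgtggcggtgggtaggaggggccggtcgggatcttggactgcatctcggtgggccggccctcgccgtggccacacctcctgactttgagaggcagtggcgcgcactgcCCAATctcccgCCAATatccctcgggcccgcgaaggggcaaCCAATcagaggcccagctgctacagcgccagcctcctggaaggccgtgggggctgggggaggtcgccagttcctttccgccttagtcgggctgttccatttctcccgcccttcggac
Mcm6, chr1:128359656-128359955, minus strand: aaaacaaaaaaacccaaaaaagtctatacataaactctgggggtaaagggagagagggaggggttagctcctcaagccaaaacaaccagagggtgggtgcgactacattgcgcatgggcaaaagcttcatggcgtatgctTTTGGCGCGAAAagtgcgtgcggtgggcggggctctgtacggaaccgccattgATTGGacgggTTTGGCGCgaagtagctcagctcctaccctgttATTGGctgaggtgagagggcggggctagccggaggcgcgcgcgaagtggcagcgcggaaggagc
Cdk1, chr10:69352863-69353162, minus strand: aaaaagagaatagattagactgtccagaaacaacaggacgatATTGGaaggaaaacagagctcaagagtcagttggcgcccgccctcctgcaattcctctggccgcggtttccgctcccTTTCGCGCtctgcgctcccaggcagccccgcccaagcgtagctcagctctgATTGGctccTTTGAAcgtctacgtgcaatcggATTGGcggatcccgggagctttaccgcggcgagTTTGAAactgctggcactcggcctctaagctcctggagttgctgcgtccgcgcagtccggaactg
Ttk, chr9:83834439-83834738, plus strand: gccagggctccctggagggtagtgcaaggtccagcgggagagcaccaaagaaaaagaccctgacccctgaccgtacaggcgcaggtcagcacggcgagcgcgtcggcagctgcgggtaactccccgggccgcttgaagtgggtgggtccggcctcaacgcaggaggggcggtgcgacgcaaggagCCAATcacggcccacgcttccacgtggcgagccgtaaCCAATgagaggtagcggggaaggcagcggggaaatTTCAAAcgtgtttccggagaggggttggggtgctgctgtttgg
The Cdk1 window holds all 3 kinds of element. Its CHR words begin 71 and 15 bases before the RefSeq start. Its CCAAT boxes, read on the opposite strand, begin 208, 80 and 48 bases before that start. Ttk holds 1 CHR word just inside the transcribed part and a pair of CCAAT boxes before it. In Mcm6 the first E2F word shares 4 bases with the second, which is read on the opposite strand. Pcna holds a single CCAAT box and Slbp holds 3, and neither window holds an E2F or CHR word in these spellings.

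The replication genes had a median level of 17.9 TPM over all libraries (2.02 to 181 TPM) and the mitosis genes one of 34.5 TPM (5.38 to 244 TPM). Each library was scored as the mean log2(TPM + 1) over a set. The replication score was 4.001, 4.14, 4.29, 3.81 and 4.80 in Lef1KI A to E, against 4.42, 4.002, 3.87 and 3.78 in WT A, B, D and E. It averaged 4.21 ± 0.38 in Lef1KI (SD, n = 5) and 4.02 ± 0.28 in WT (SD, n = 4), and the groups overlapped. The mitosis score was 4.56, 5.04, 4.69, 4.67 and 5.35 in Lef1KI A to E, against 5.59, 4.94, 5.08 and 4.91 in WT A, B, D and E. It averaged 4.86 ± 0.33 in Lef1KI and 5.13 ± 0.32 in WT, again with overlap. Both differences, 0.19 and -0.27, were smaller than the pooled SD within groups, 0.34 and 0.32. They also depended on 2 libraries: the replication difference was 0.04 without Lef1KI E and 0.32 without WT A, and the mitosis difference was -0.39 without Lef1KI E and -0.11 without WT A.

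The ratio of the sets, taken as the replication score minus the mitosis score, was steadier. It was -0.56, -0.90, -0.40, -0.86 and -0.55 in Lef1KI A to E, against -1.18, -0.94, -1.21 and -1.13 in WT A, B, D and E. Every Lef1KI library lay above every WT library, although Lef1KI B and WT B were only narrowly apart. The ratio averaged -0.65 ± 0.22 in Lef1KI (SD, n = 5) and -1.11 ± 0.12 in WT (SD, n = 4), a difference of 0.46 or 1.37-fold in geometric means of TPM + 1, against a pooled SD of 0.18. No test was made of it, since the genes were chosen with earlier results known. It was 0.40 to 0.52 when any single library was left out and 0.41 without both Lef1KI E and WT A. In summed TPM, the replication set held 0.652, 0.490, 0.665, 0.575 and 0.627 of the mitosis set in Lef1KI A to E, against 0.393, 0.470, 0.355 and 0.439 in WT A, B, D and E. The groups overlapped when each set was scored by its median gene, at -1.11 to -0.41 in Lef1KI and -1.23 to -0.72 in WT.

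**Figure D2:**
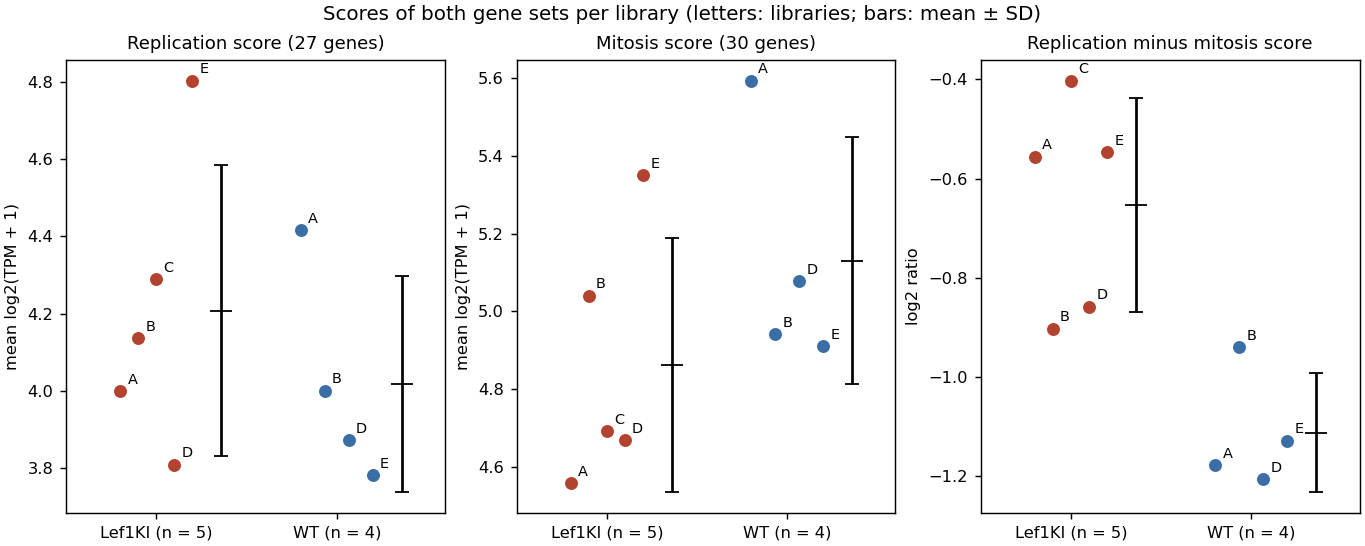
Replication score, mitosis score and their ratio per library, on the log2 scale, with Lef1KI left of WT; points are libraries and bars the group mean with its SD. Both scores overlap between the groups, and the 5 Lef1KI ratios (-0.90 to -0.40) lie above the 4 WT ratios (-1.21 to -0.94).

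Across all genes, limma with Benjamini-Hochberg adjustment called 1063 of 13336 genes (7.97%) at an adjusted p below 0.05, of which 898 (6.73%) were higher and 165 (1.24%) lower in Lef1KI. None of the 57 cell cycle genes was called in either direction. In none of them did the groups' ranges separate, against 11.9% of all genes, 1.89% being lower in Lef1KI. At an unadjusted limma p below 0.05 there were 7, or 12.3%, against 23.8% of all genes: Pcna was higher (18.7% of all genes were), and Cdk1, Aurkb, Ttk, Plk1, Tpx2 and Bub1b were lower (5.06% of all genes were). These counts, 1 replication gene and 6 mitosis genes, moved with the processing: they were 0 and 13 under median centring or trimmed-mean scaling, 1 and 13 under quantile normalization, and 0 and 0 with the column letter as a block. Leaving out a library gave 4 and 0 without WT A, 3 and 1 without Lef1KI D, 2 and 3 without Lef1KI A, 1 and 1 without Lef1KI C, 0 and 2 without WT D and 1 and 10 without Lef1KI E. These genes varied more between libraries of a group than most: their median SD on the log2 scale was 0.41 in Lef1KI and 0.33 in WT, against 0.26 and 0.22 over all genes. The median difference was 0.12 in the replication set and -0.23 in the mitosis set, against 0.14 over all genes, of which 30.4% had a negative difference. The replication set thus lay near the typical gene, and after median centring, trimmed-mean scaling or quantile normalization its median turned negative (-0.04 to -0.03, with 13 of 27 genes positive), while the mitosis median was -0.39 to -0.36 with 30 of 30 negative. By role, the mean difference ran from 0.10 for the helicase to 0.41 for cyclin E and E2F in the replication set, and from -0.29 for the spindle genes to -0.09 for Mki67 with Top2a in the mitosis set. Leaving out Lef1KI E moved the replication median to -0.01, with 12 of 27 positive. Leaving out WT A moved the mitosis median to -0.05, with 20 of 30 negative.

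**Figure D3:**
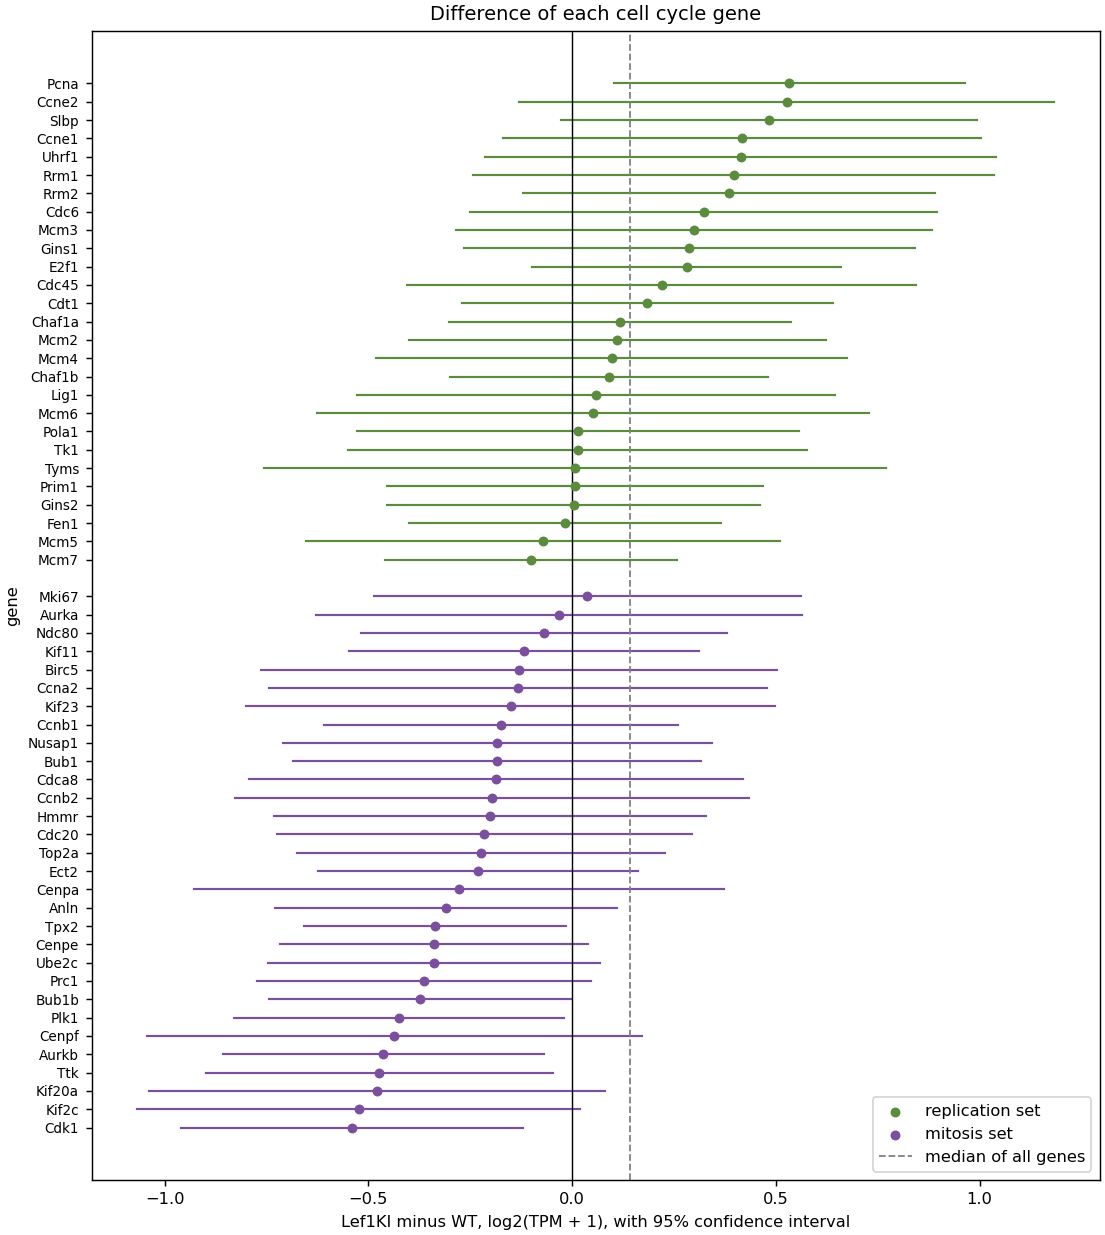
Difference of each gene, Lef1KI minus WT in log2(TPM + 1), with its 95% confidence interval from limma, grouped by set. The replication genes run from -0.10 to 0.53 and the mitosis genes from -0.54 to 0.04.

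Among the genes that copy DNA, Pcna (mm10, chromosome 2, bases 132249162 to 132253314, minus strand), the sliding clamp of the polymerases, had the largest difference of the replication set. It stood at 71.8, 85.0, 109, 77.9 and 148 TPM in Lef1KI A to E, against 72.9, 66.9, 58.2 and 64.0 TPM in WT A, B, D and E. Lef1KI B to E all exceeded every WT library, and Lef1KI A lay just below WT A. The difference was 0.53 ± 0.20 (SE; 95% interval 0.10 to 0.96), with a limma adjusted p of 0.131. Pcna has a processed pseudogene, Pcna-ps2, that matches it at 99.2% over 781 bases. Pcna-ps2 stood at 0, 0.17, 0.10, 0.07 and 0.14 TPM in Lef1KI A to E, against 19.1, 9.51, 14.2 and 2.56 TPM in WT A, B, D and E. Pcna-ps2 fell in Lef1KI by 3.24 on the log2 scale with a limma adjusted p of 0.00115. It met the filter of the deposited table through the WT group only, so its lower level in Lef1KI is not independent of that filter. The submitters' processing notes name RSEM, which divides reads between such copies, so the value of Pcna itself is uncertain. With both added together, the mean was 98.5 ± 31.4 TPM in Lef1KI (n = 5) and 76.8 ± 10.9 TPM in WT (n = 4), and the difference was 0.31 with an adjusted limma p of 0.363. The other genes of this role, Fen1, Lig1, Pola1 and Prim1, which process Okazaki fragments and prime new strands, had differences of -0.02 to 0.06.

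The MCM2-7 helicase and its activators differed by 0.10 in their mean. Mcm2, a helicase subunit, stood at 21.0, 27.3, 33.0, 24.0 and 44.8 TPM in Lef1KI A to E, against 38.9, 24.7, 25.1 and 21.3 TPM in WT A, B, D and E. The highest library of each group, Lef1KI E and WT A, stood well above the others. Its difference was 0.11 ± 0.23 (SE), with a limma adjusted p of 0.791, and it turned negative under all 3 scalings and without Lef1KI E. The other MCM subunits ran from -0.10 for Mcm7 to 0.30 for Mcm3, and Cdc45, Gins1 and Gins2, which complete the active helicase, from 0.00 to 0.29. Cdc6 and Cdt1, which load the helicase on origins, had differences of 0.32 and 0.18.

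Cyclin E and E2F1, which drive entry into S phase, were low in TPM. Ccne1 stood at 3.93, 7.88, 9.85, 3.83 and 8.41 TPM in Lef1KI A to E, against 4.02, 3.75, 5.11 and 5.34 TPM in WT A, B, D and E. Lef1KI B, C and E were higher than every WT library, and Lef1KI A and D lay among the lower WT libraries. Its difference was 0.42 ± 0.27 (SE), adjusted limma p 0.359. Ccne2, the second cyclin E, stood at 1.53, 1.72, 3.87, 1.04 and 4.96 TPM in Lef1KI A to E, against 1.78, 0.93, 1.38 and 1.23 TPM in WT A, B, D and E. Only Lef1KI C and E exceeded all WT libraries, and the difference was 0.53 ± 0.30 (SE), adjusted limma p 0.305. E2f1, a transcription factor that activates S phase genes, stood at 6.85, 7.26, 9.68, 9.54 and 11.3 TPM in Lef1KI A to E, against 7.41, 7.77, 7.17 and 5.97 TPM in WT A, B, D and E. Lef1KI C, D and E exceeded all WT libraries, with a difference of 0.28 ± 0.17 (SE) and an adjusted limma p of 0.340.

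Nucleotide supply differed mainly through the 2 subunits of ribonucleotide reductase. Rrm1 averaged 199 ± 44.8 TPM in Lef1KI and 158 ± 60.6 TPM in WT, where WT D stood apart at 75.1 TPM and the other WT libraries at 164 to 220 TPM. Rrm2, the subunit that limits the enzyme outside S phase, averaged 42.9 ± 13.5 TPM in Lef1KI and 32.4 ± 8.85 TPM in WT. Their differences were 0.40 and 0.39, with adjusted limma p of 0.419 and 0.327. Tyms and Tk1, which make thymidine nucleotides, differed by 0.01 each. Without Rrm1, the most abundant replication gene, the ratio of the sets was -1.04 to -0.51 in Lef1KI libraries and -1.31 to -1.07 in WT libraries, a difference of 0.45.

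Of the genes that package new DNA, Slbp differed most. Slbp binds the stem-loop of histone mRNA and stood at 12.3, 15.7, 23.9, 15.2 and 26.7 TPM in Lef1KI A to E, against 15.2, 12.4, 13.8 and 9.64 TPM in WT A, B, D and E. Lef1KI C and E stood well above the rest, Lef1KI B and D just above all WT libraries and Lef1KI A below 3 of them. The difference was 0.48 ± 0.23 (SE; 95% interval -0.03 to 0.99), with an adjusted limma p of 0.235. Uhrf1, which recognises hemimethylated DNA behind the fork, had a difference of 0.41, and Chaf1a and Chaf1b, subunits of a histone chaperone, 0.12 and 0.09.

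**Figure D4:**
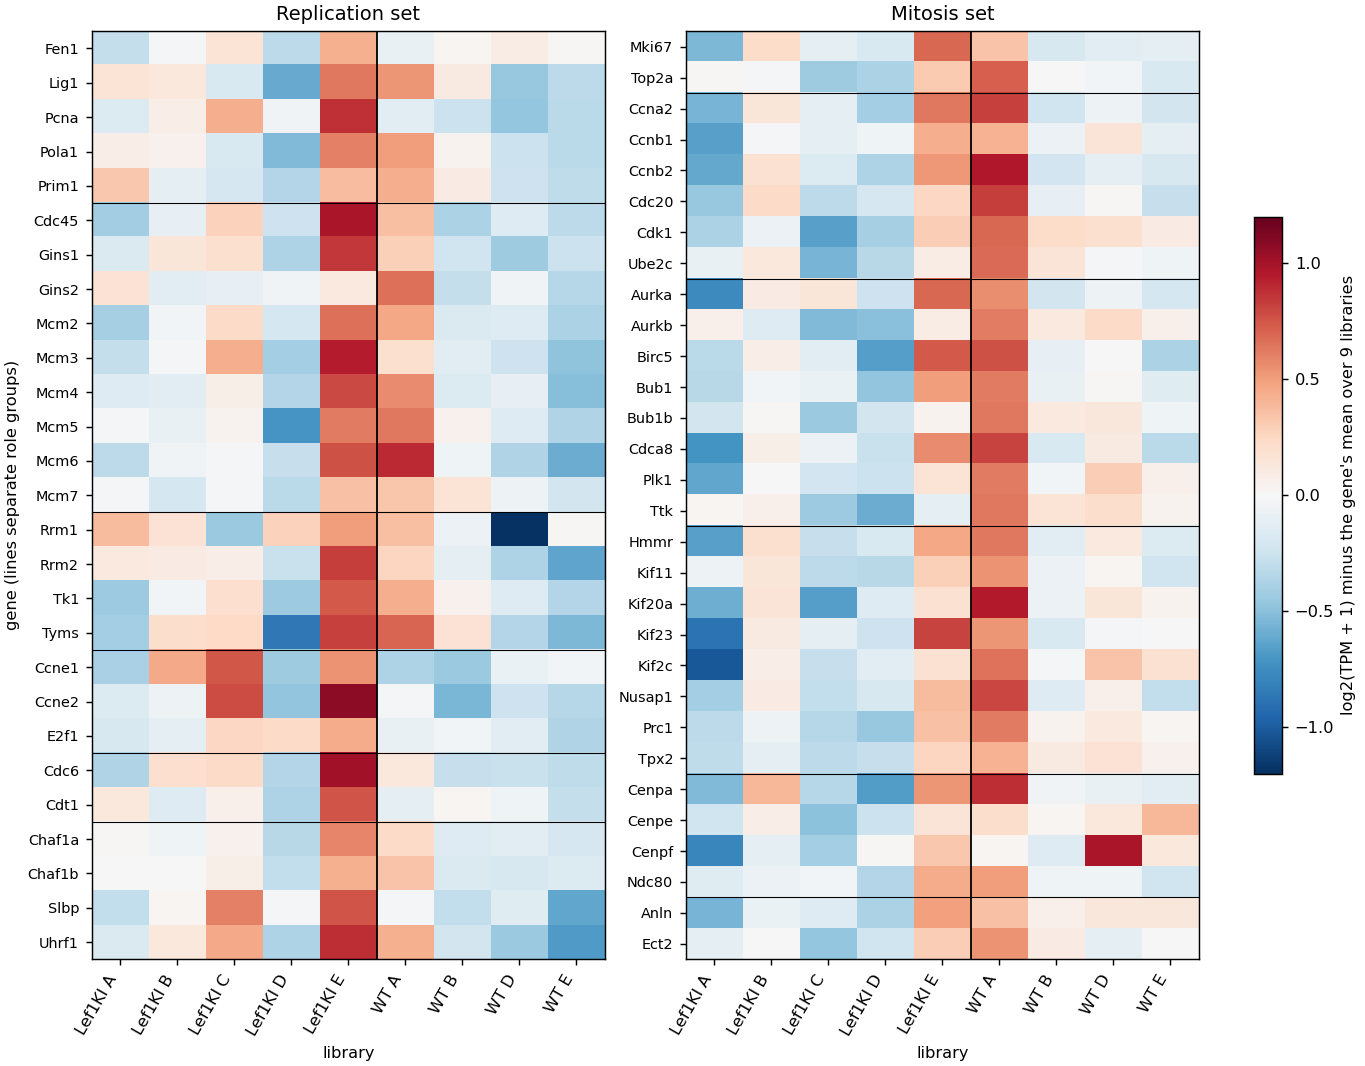
Level of each gene in each library as the deviation from its mean over the 9 libraries, in log2 units, Lef1KI libraries left of WT libraries. Lef1KI E and WT A are high across most rows, in 53 and 51 of 57 genes the highest of their group.

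In the mitosis set, Cdk1 showed the largest difference. Cdk1 (mm10, chromosome 10, bases 69335146 to 69352938, minus strand) is the kinase that triggers mitosis. It stood at 95.1, 118, 78.7, 94.0 and 152 TPM in Lef1KI A to E, against 200.3, 144, 142 and 133 TPM in WT A, B, D and E. Lef1KI A to D were all below every WT library, and Lef1KI E lay above 3 of them. The difference was -0.54 ± 0.19 (SE; 95% interval -0.96 to -0.12), with a limma adjusted p of 0.117. Cdk1 was called lower without Lef1KI E (-0.67, adjusted limma p 0.0294), without both Lef1KI E and WT A (-0.54, 0.0421) and after quantile normalization (-0.68, 0.0392); over all alternatives its adjusted limma p ran from 0.0294 to 0.354. Its partner cyclin Ccnb1 stood at 47.2, 74.1, 69.1, 72.3 and 101 TPM in Lef1KI A to E, against 100.2, 71.0, 83.3 and 69.1 TPM in WT A, B, D and E. Apart from Lef1KI A, the Ccnb1 values interleaved, with a difference of -0.17 ± 0.20 (SE) and an adjusted limma p of 0.605. Ccna2 and Ccnb2, the other mitotic cyclins, differed by -0.13 and -0.20, and Cdc20 and Ube2c, which work with the anaphase-promoting complex that destroys cyclins, by -0.22 and -0.34.

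Of the 8 genes of mitotic kinases, the checkpoint and the chromosomal passenger complex, 4 were lower at the unadjusted limma threshold, against 5.06% of all genes. The mitosis genes moved together by library, so these 4 are not separate results. Of the whole mitosis set, 0 genes passed without WT A or with the column letter as a block, and 1 without Lef1KI C or without Lef1KI D. Ttk, a kinase of the spindle checkpoint, stood at 8.49, 8.75, 5.88, 5.18 and 7.68 TPM in Lef1KI A to E, against 13.5, 9.49, 9.78 and 8.58 TPM in WT A, B, D and E. All Lef1KI libraries except B were below every WT library, and B lay above WT E alone. The difference was -0.47 ± 0.19 (SE; 95% interval -0.90 to -0.05), with a limma adjusted p of 0.170. Aurkb, the kinase of the chromosomal passenger complex, differed by -0.46, Plk1, a kinase of mitotic entry and spindle assembly, by -0.42, and the checkpoint protein Bub1b by -0.37. Birc5 and Cdca8, other subunits of the passenger complex, differed by -0.13 and -0.19, and Aurka, the spindle pole kinase, by -0.03. Bub1, a checkpoint kinase, differed by -0.18.

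Among spindle motors, Kif2c, a kinesin that takes microtubule ends apart, and Kif20a, a kinesin of the spindle midzone, differed most. Kif2c stood at 5.58, 13.1, 9.95, 11.1 and 14.1 TPM in Lef1KI A to E, against 19.9, 12.1, 15.9 and 14.1 TPM in WT A, B, D and E. Lef1KI A was lowest of all 9, and the difference was -0.52 ± 0.25 (SE), adjusted limma p 0.225. Kif20a stood at 13.1, 22.4, 12.3, 17.9 and 23.0 TPM in Lef1KI A to E, against 39.8, 19.04, 22.3 and 20.6 TPM in WT A, B, D and E. WT A stood well above the other WT libraries, and the difference was -0.48 ± 0.25 (SE), adjusted limma p 0.276. On the opposite strand Kif20a overlaps Cdc23 over 29.3% of its exonic bases, and whether counting used the strand is not stated. Tpx2, which activates Aurora A on the spindle, differed by -0.34, Prc1, which bundles midzone microtubules, by -0.36, and Kif11, Kif23, Nusap1 and Hmmr by -0.20 to -0.12. The centromere genes Cenpa, Cenpe, Cenpf and Ndc80 differed by -0.44 to -0.07; Cenpf stood apart in WT D, at 10.9 TPM, against 4.43 to 5.59 TPM in the other WT libraries. The cytokinesis genes Anln and Ect2 differed by -0.31 and -0.23.

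Mki67 and Top2a are often used as markers of proliferation. Mki67, which coats mitotic chromosomes, stood at 8.46, 15.0, 11.8, 11.2 and 21.3 TPM in Lef1KI A to E, against 16.5, 11.1, 11.7 and 11.8 TPM in WT A, B, D and E. Lef1KI E and WT A were the highest of all 9 libraries and Lef1KI A the lowest. Mki67 was the only mitosis gene with a positive difference, 0.04 ± 0.24 (SE; adjusted limma p 0.941), and it turned negative under all 3 scalings, without Lef1KI B, without Lef1KI E and without WT B. Top2a, the enzyme that untangles sister chromatids, stood at 87.0, 85.2, 64.1, 65.9 and 107 TPM in Lef1KI A to E, against 142, 85.9, 84.3 and 75.9 TPM in WT A, B, D and E. Lef1KI C and D were lowest of all 9 libraries, with a difference of -0.22 ± 0.20 (SE) and an adjusted limma p of 0.521.

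Within each group, the genes moved together by library. Lef1KI E was the highest of its group in 25 of 27 replication genes and 28 of 30 mitosis genes, and WT A in 23 of 27 and 28 of 30. Lef1KI D and A were the lowest for 24 and 22 genes, and WT E and B for 36 and 14. The ratio of the sets did not follow this order: it was -0.55 in Lef1KI E and -1.18 in WT A, inside the range of the other libraries of each group. Lef1KI E also had the lowest fibroblast sum of its group, 451 TPM, and WT A the lowest of its group, 131 TPM. The fibroblast sums of Lef1KI A to E were 913, 629, 1283, 1080.4 and 451 TPM, beside ratios of -0.56, -0.90, -0.40, -0.86 and -0.55, so the orders of the 2 measures differ within the group. The part of fibroblast RNA in these values was not tested.

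Further genes of the same pathways gave a ratio that differed in the same direction but by less, 0.27 against 0.46. Of 54 other replication and repair genes with a row, 0 were called by limma, 7 passed an unadjusted limma p of 0.05 (6 higher, 1 lower), or 13.0%, and the median difference was 0.15, against 0.14 over all genes. Over all genes, 7.97% were called and 23.8% passed the unadjusted threshold. Of 70 other mitosis genes, 1 was called lower (1.24% of all genes were) and none higher. At an unadjusted limma p below 0.05, 3 were higher and 6 lower, or 12.9%, against 23.8% of all genes. A negative difference was found for 49, or 70% (30.4% of all genes), and the median was -0.11. The largest difference went the other way: Zwint was higher by 0.80 (adjusted limma p 0.091), and its ranges did not overlap. The ratio of these 2 lists, on the same log2 scale, was -0.01, -0.11, 0.13, -0.05 and 0.10 in Lef1KI A to E, against -0.27, -0.20, -0.31 and -0.27 in WT A, B, D and E. It averaged 0.01 ± 0.10 in Lef1KI (SD, n = 5) and -0.26 ± 0.04 in WT (SD, n = 4), and the groups did not overlap. Being from the same libraries, it is not independent evidence. The called gene was Ckap2, a spindle-associated protein, at 12.8, 20.7, 15.4, 20.4 and 19.5 TPM in Lef1KI A to E, against 24.8, 26.2, 29.2 and 26.3 TPM in WT A, B, D and E. The groups did not overlap. Ckap2 fell by 0.57 (adjusted limma p 0.0499), and lost the call in 8 of 9 fits that left out a library; it kept the call without Lef1KI A. Rrm2b, a p53-induced subunit of ribonucleotide reductase, and Orc4, an origin recognition subunit, had the smallest p of the other replication genes, with differences of 0.50 and 0.33 and adjusted limma p of 0.115 and 0.133. Among 32 regulators (cyclin D, CDK, RB and E2F proteins and others), Cdc25b, a phosphatase that activates Cdk1, was the only one called, against 7.97% of all genes; it fell by 0.78 (adjusted limma p 0.0328), and lost the call without Lef1KI D and without WT B, D or E. Without Lef1KI A, 2 other replication genes, 3 other mitosis genes and 4 regulators were called.

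**Figure D5:**
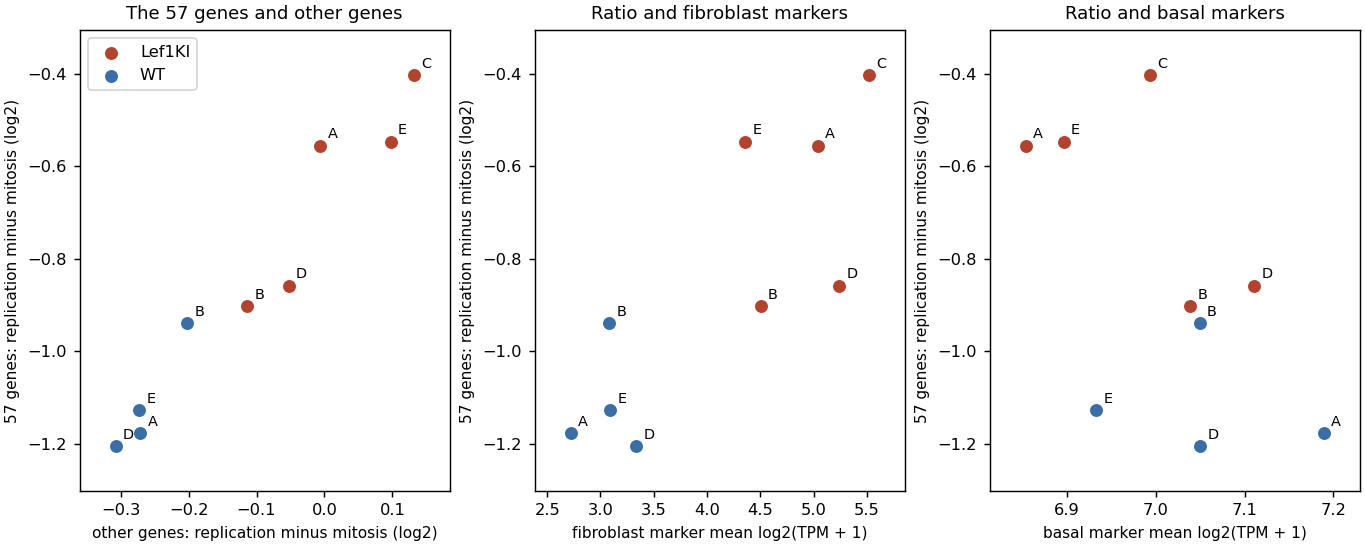
Log2 ratio of the replication set to the mitosis set of the 57 genes, per library, against the same ratio over the further genes of both pathways, the fibroblast marker score and the basal marker score; each point is a library. Both ratios lie higher in the Lef1KI libraries (-0.90 to -0.40 against -1.21 to -0.94 for the 57 genes, and -0.11 to 0.13 against -0.31 to -0.20 for the further genes), as does the fibroblast score, while the basal score overlaps.

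Several values share sequence with a neighbour. Opposite-strand exons of another gene cover 78.8% of the exonic bases of Fen1, 67.3% of Gins2, 52.5% of Chaf1a, 22.8% of Ube2c and 17.4% of Ccne2. Stretches of at least 95% identity over 300 bases on the same strand exist in transcripts of other genes for 9 of the 57 genes. For 3 of these 9, Pcna, Ndc80 and Tyms, such another gene has a row in the table. Those of Tyms are short stretches in genes such as Map3k2 (357 bases) and Wdr59 (358 bases), not copies of Tyms. The values of all the genes that share sequence are uncertain to that extent.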

How the data were processed

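Polyadenylated RNA of 9 sorted-cell libraries (5 Lef1KI, 4 WT) was sequenced from stranded TruSeq libraries, per the labels' protocols. The deposited table holds log2(TPM + 1), which the authors made with RSEM on mm10, per the submitters' processing notes, with no versions stated. The table holds genes whose mean is at least 3 SD in at least 1 group, as tested on its values, and TPM keeps no read counts, so depth is unknown. Columns carry letters that match no replicate number in the labels, so they were assigned to groups by name.

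Values were tested as deposited with limma 3.58.1 (R 4.3.3, trend, group as the only term, two-sided), adjusted over all 13336 genes and called below 0.05. The fit was tested on simulated data. Scores are means of log2(TPM + 1) over 27 replication and 30 mitosis genes; the rule for the sets names 30 first genes, which was tried as an alternative. The genes and all lists were chosen with earlier results of these data known. Given by library were, in each set, the 4 genes with the largest difference and chosen landmarks; from other lists, called genes or the 2 of smallest p were named. Column letters were not taken as pairs, since they match no label. Correlations of same-letter deviations were -0.26, 0.02, 0.26 and -0.15 for A, B, D and E. WT D alone had the Lef1KI library of its own letter as best match, so these values do not settle whether letters pair. Gene positions and overlaps came from GENCODE, copies from blastn 2.17.0 and promoters from RefSeq. Alternatives covered scaling, pseudocount, a minimum of 1 TPM, limma settings, a block by letter, score definitions and leaving out each library; those without Lef1KI E and WT A together, without Rrm1 and with Pcna-ps2 added to Pcna were chosen after seeing the data.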

Additional observations from a re-analysis of the deposited data

Results flagged for a closer look

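For 8 genes, 1 library stood apart from the rest of its group by Dixon's gap ratio, the gap to the nearest library divided by the range of the group. Chance flags about 1 in 20 groups, and 114 were looked at. Mcm6 was high in Lef1KI E, with a ratio of 0.716. The other 7 were high in WT A: Chaf1b had a ratio of 0.94, Cdc6 0.915, Cenpa 0.906, Ccnb2 0.897, Chaf1a 0.855, Mki67 0.844 and Prc1 0.834. Neither score, nor their ratio, stood apart in any library by this measure.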

How the results depend on the processing

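None of the 27 replication genes was called by limma under any alternative; at an unadjusted limma p below 0.05 there was 1 as deposited and 0 to 4 under the alternatives, and of mitosis genes 6 as deposited and 0 to 13. Of the mitosis genes, 1 (Cdk1) was called under quantile normalization and without both Lef1KI E and WT A, and 0 to 1 when single libraries were left out. With the column letter as replicate block, 0 genes of either set were called and all genes gave 484 calls, against 1063 without it; the calls of Ckap2 and Cdc25b were lost. Leaving out single libraries gave 628 (without WT E) to 1686 (without Lef1KI A) calls over all genes, with 0 to 2 other replication genes, 0 to 3 other mitosis genes and 0 to 4 regulators. It gave differences of 0.04 to 0.32 for the replication score, -0.39 to -0.11 for the mitosis score and 0.40 to 0.52 for their ratio, all of 1 sign. As means of z scores, another unit, the mitosis difference was -0.72 and the ratio 1.17. The difference of Mcm2 turned to -0.0483 under median centring, -0.0378 under trimmed-mean scaling, -0.0256 under quantile normalization and -0.0419 without Lef1KI E, the lowest when single libraries were left out (highest 0.285). That of Mki67 turned to -0.12 under median centring, -0.11 under trimmed-mean scaling, -0.13 under quantile normalization, -0.01 without Lef1KI B, -0.13 without Lef1KI E, -0.02 without WT B and -0.01 without both Lef1KI E and WT A, with a highest value of 0.177 when single libraries were left out; the cause was not tested. These scalings moved the median of all genes to between -0.02 and -0.01, against 0.14 as deposited, and gave 5 calls among the other mitosis genes, against 1. Depth is unknown, and with 5 and 4 libraries the 95% intervals of all but 7 of the 57 genes include 0.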

Other observations

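The regulators upstream of both sets were mixed. Of 32 genes of the cyclin D, CDK, RB and E2F lists, 18 had a positive difference. The other 14, or 43.8%, had a negative one, against 30.4% of all genes. The median of the 32 was 0.05, against 0.14 over all genes. Cdc25b, which removes the inhibitory phosphates from Cdk1, was the only one called by limma; it stood at 55.5, 49.99, 27.9, 45.7 and 46.0 TPM in Lef1KI A to E, against 59.9, 79.4, 90.0 and 79.0 TPM in WT A, B, D and E, all Lef1KI libraries lying below all WT libraries. The genes below were chosen after their values were seen. The ranges also separated for E2f6, a repressor of the E2F family, at 5.33 to 10.9 TPM in Lef1KI and 4.59 to 4.97 TPM in WT, and for Ccnd3, a D-type cyclin, at 62.3 to 97.6 TPM in Lef1KI and 42.7 to 61.0 TPM in WT. Their differences were 0.64 and 0.43, neither called. Across all genes, ranges separated for 11.9%. Of the activators and MuvB proteins in the list, none was called: the differences were 0.74 for Mybl2 (adjusted limma p 0.233), 0.29 for Foxm1 (0.473), -0.03 for Lin9, -0.27 for Lin37, -0.17 for Lin52 and -0.16 for Lin54.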
